A study of Arabidopsis thaliana with 13 samples.

Results

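Plant cell walls yield and are rebuilt as cells leave the meristem, and 40 genes of the enzyme and protein families that do this work were followed in *Arabidopsis* root tips. They are the genes whose symbol or synonym places them among the expansins, the xyloglucan endotransglucosylase/hydrolases (XTH), the cellulose synthases (CESA), the cellulose synthase-like proteins (CSL), the pectin methylesterases (PME), the fasciclin-like proteins (FLA) or the arabinogalactan proteins (AGP), and which have a probe set assigned to 1 gene only. These 40 probe sets, each of a different gene, are part of 22746 that are not controls, 13513 of which stand for 1 gene. They hold 10 alpha-expansins (EXPA), 9 beta-expansins and expansin-like genes (EXPB, EXLA and EXLB), 10 XTH, 8 CSL and 3 PME genes. By the same names the RefSeq annotation of TAIR10.1 lists 176 genes, among them 10 CESA, 20 FLA and 30 AGP genes. No CESA, FLA or AGP gene had a probe set of its own, that is, assigned to it alone in the annotation used. All synthase genes described here are therefore CSL genes. The array may measure such genes by probe sets that this annotation does not assign to 1 gene. The other genes of these families were not analysed here.

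Expansins loosen the wall without cutting its polymers, which lets turgor stretch the cell. XTH enzymes cut xyloglucan chains and rejoin them to others, CSL proteins make the backbones of hemicelluloses such as mannan and xyloglucan, and pectin methylesterases remove methyl esters from pectin and so alter its stiffness. In the root these activities accompany elongation above the meristem and the outgrowth of root hairs, for which the expansins EXPA7 and EXPA18 are known.

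The arrays hold RNA of rRBr, a line in the Col-0 background where the RCH1 promoter drives an RNA interference construct in the root meristem against RETINOBLASTOMA RELATED (RBR), and Col-0 wild type. RNA came from root tips dissected under the microscope and was hybridised to 13 Affymetrix ATH1 arrays. Each is labelled as a biological replicate, numbered from 1 to 3 within its line and day. The study started the seed of both lines for all days together and repeated this, so that arrays with the same number may share a repeat. The main fits below do not take this into account. The arrays of 4 das are 2 of each line, those of 6 das 1 of Col-0 and 2 of rRBr, and those of 10 das 3 of each line (das is given as days after stratification in the labels and as days after sowing in the study). Both lines share the Col-0 background and were germinated side by side, no other treatment is given in the labels, and the silencing acts only where the RCH1 promoter does. RBR itself was not analysed here, so that the line labels were not checked by its level.

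All values are log2 RMA values, on which a difference of 1 is a factor of 2. They compare 1 gene across arrays and not different genes with each other. The arrays had medians between 5.96 and 6.06 and no pair was identical. As bulk samples, they cannot tell fewer cells of a type from less RNA per cell. Of the lists of cell type markers, a probe set of their own was found for IRX10 of the xylem wall, which lay between 5.35 and 6.22, and for the mitotic kinases AUR1 and AUR2, between 7.45 and 9.06. In the annotation used, no gene listed as a marker of root hairs, root cap, endodermis or shoot had one besides EXPA7 and EXPA18. The array does measure some of them, since the study reports BRN2 of the root cap list. Of the 40 genes, 22 had a mean of at least 6. Another 8 (CSLA01, EXPA21, EXLA3, EXLB2, EXPB5, PME61, XTH29 and XTH32) were below the lower quartile of the array, 4.15 to 4.24, on all 13 arrays, and differences between their values are differences between dim signals.

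On 3 arrays, replicate 1 of Col-0 at 10 das and replicate 1 of rRBr at 6 and at 10 das, both root hair expansins stood far above their values elsewhere. EXPA7 (AT1G12560) was at 8.83, 8.75 and 8.68 on these 3 arrays and between 4.37 and 7.65 on the other 10. EXPA18 (AT1G62980) was at 8.88, 9.03 and 8.92 against 5.00 to 7.16. These arrays belong to both lines and to 2 of the 3 days. All 3 carry the replicate number 1, as does 1 array each of Col-0 at 4 and 6 das and of rRBr at 4 das. The labels do not say whether this number marks a shared repeat of the experiment, and they name no other batch. Results are therefore given below with all arrays and, where it matters, without these 3.

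**Figure D1:**
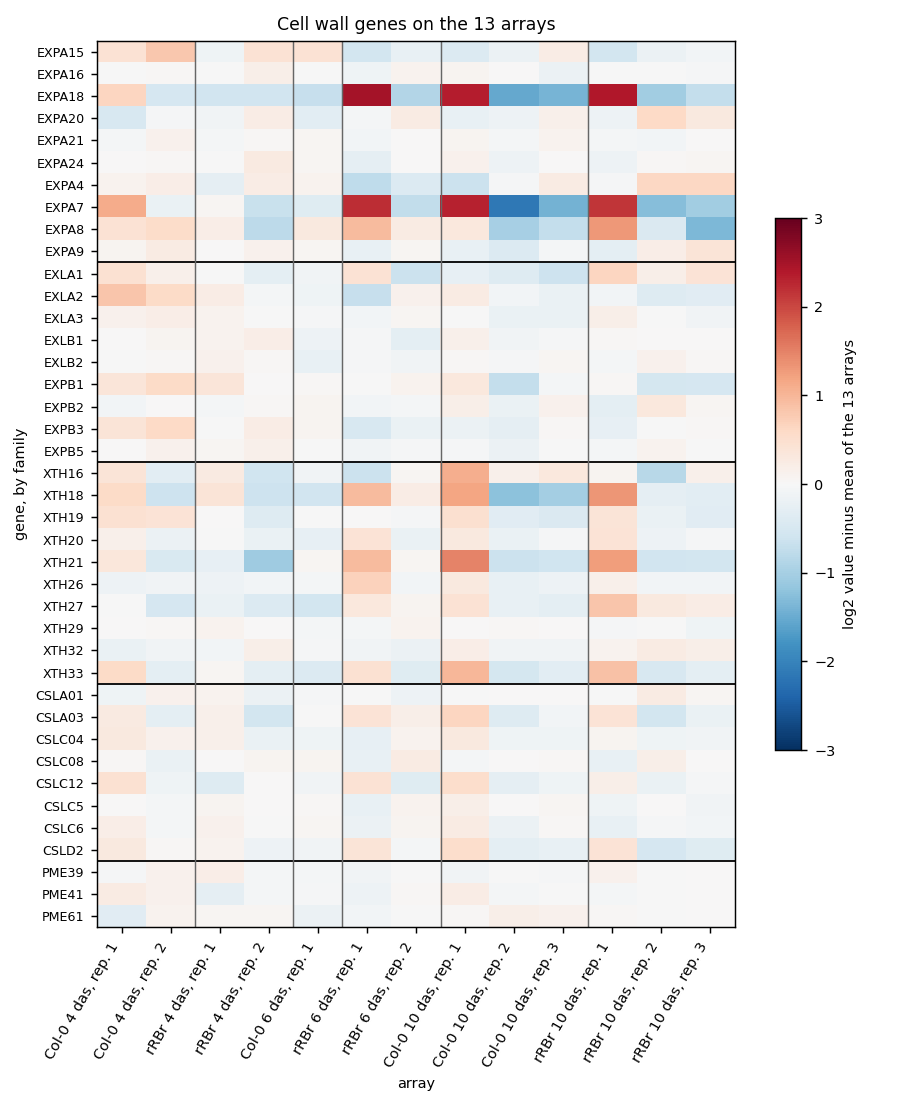
Log2 value of each of the 40 genes (rows, by family) minus its mean over the 13 arrays (columns, by line and day), with red above and blue below the mean. EXPA7 and EXPA18 are deep red on replicate 1 of Col-0 at 10 das and of rRBr at 6 and 10 das, where XTH18, XTH21 and XTH33 are red as well, and the PME genes are pale throughout.

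None of the 40 genes passed the test between the lines. This does not hold for all genes of these families, since the study lists XTH28, which is not among the 40, as higher in rRBr. A gene was called where limma gave an adjusted p below 0.01 together with a fold change of 1.4 or more, and over all days this held for 0 of the 40, against 0.418% of all probe sets (95 of 22746), and 2 of the 40 had an unadjusted p under 0.05, against 10.2% of all. Differences (rRBr minus Col-0) ran from -0.47 to 0.52 with a median of 0.01, and 21 genes were higher and 19 lower in rRBr, beside a median of -0.01 over all probe sets. No gene had its 7 rRBr arrays clear of its 6 Col-0 arrays, which was so for 1.28% of all probe sets. The 95% intervals of the differences had a median half-width of 0.28, against 0.17 for all probe sets, and those of 23 genes lay wholly within a fold change of 1.4 in either direction.

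**Figure D2:**
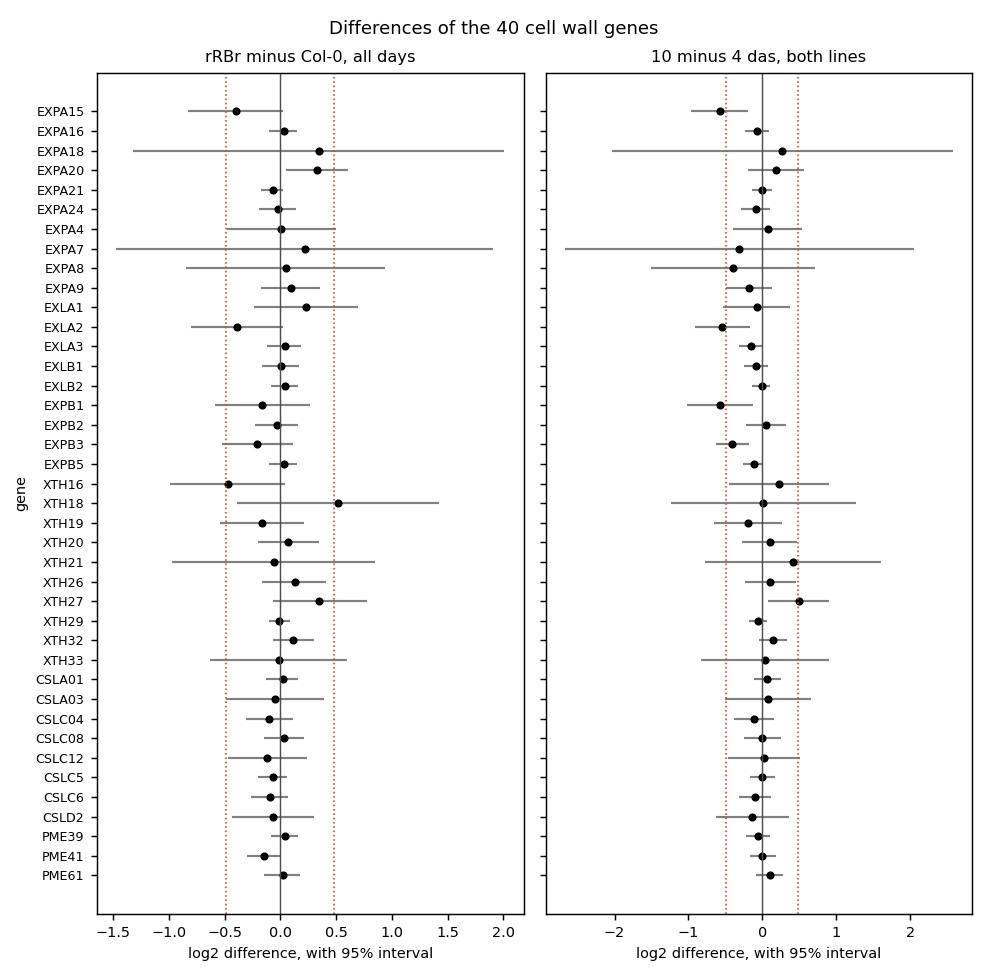
Log2 differences of the 40 genes with their 95% intervals from limma, between rRBr and Col-0 over all days (left) and between 10 and 4 das averaged over both lines (right), with dotted lines at a fold change of 1.4 in either direction. The intervals of EXPA7 and EXPA18 are the widest in both panels, and on the left most others lie close to 0.

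Among the alpha-expansins 7 were higher and 3 lower in rRBr over all days, with a median difference of 0.04. EXPA20 (AT4G38210) had the smallest p of the 40 genes. In Col-0 it was at 6.01 and 6.46 at 4 das, 6.16 at 6 das and 6.26, 6.33 and 6.63 at 10 das. In rRBr it was at 6.37 and 6.72, at 6.43 and 6.73, and at 6.34, 7.09 and 6.79. On each day the rRBr mean lay above that of Col-0, but the ranges of the lines overlapped. In each of the 6 pairs of arrays with the same day and replicate number rRBr was the higher, by 0.08 to 0.76, and of the 40 genes this was so for EXPA20 alone, against 4.06% of all probe sets. The difference was 0.33 (SE 0.13, 1.26-fold, limma adjusted p = 0.3611), with a 95% interval of 0.05 to 0.61. With the replicate number as a block it was 0.31 (SE 0.08, limma adjusted p = 0.08585). The reverse order in all 6 pairs was found for EXLA2 and XTH16, or 5% of the 40 against 3.56% of all probe sets.

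EXPA15 (AT2G03090) had the largest negative difference of its family. It was at 10.04 and 10.43 in Col-0 at 4 das, at 10.05 at 6 das and at 9.21, 9.44 and 9.83 at 10 das. In rRBr it was at 9.48 and 10.04, at 9.06 and 9.40, and at 9.07, 9.44 and 9.53. The gap between the lines was widest at 6 das, where 1 Col-0 array stands against 2, and nearly closed at 10 das. Over all days the difference was -0.40 (SE 0.20, adjusted p = 0.5301), at 6 das -0.82 (SE 0.32, adjusted p = 0.9264) and at 10 das -0.15 (SE 0.22, adjusted p = 0.9936).

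For the root hair expansins the line comparison was dominated by the spread within groups. EXPA7 averaged 6.41 ± 1.63 over the Col-0 arrays (SD, n = 6) and 6.63 ± 1.48 over those of rRBr (SD, n = 7), a difference of 0.22 (SE 0.79, adjusted p = 0.9558). For EXPA18 the averages were 6.34 ± 1.46 (SD, n = 6) and 6.69 ± 1.57 (SD, n = 7), a difference of 0.35 (SE 0.77, adjusted p = 0.9271). The intervals, -1.47 to 1.91 and -1.32 to 2.01, leave room for more than a factor of 2 in either direction. Without the 3 arrays, which were named for high levels of these genes, the differences were -0.13 and -0.06, of the opposite sign.

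The beta-expansins and expansin-like genes comprised 5 higher and 4 lower genes, with a median of 0.01. EXLA2 (AT4G38400) was lowest relative to Col-0, at -0.39 (SE 0.19, adjusted p = 0.5313), and EXLA1 (AT3G45970) highest, at 0.23 (SE 0.22, adjusted p = 0.7975), a value that was 0.03 without the 3 arrays. The XTH genes divided evenly, 5 higher and 5 lower, and held both extremes of the 40 genes. XTH18 (AT4G30280), of a group of XTH genes known for expression in roots, averaged 9.0 ± 0.95 over the Col-0 arrays (SD, n = 6) and 9.52 ± 0.71 over those of rRBr (SD, n = 7), a difference of 0.52 (SE 0.42, adjusted p = 0.7639). XTH16 (AT3G23730) was at 8.64 ± 0.49 (SD, n = 6) and 8.17 ± 0.45 (SD, n = 7), a difference of -0.47 (SE 0.24, adjusted p = 0.5461). Both differences were of the size of the SD between arrays or below it. Without single arrays that of XTH18 was 0.33 to 0.81 and that of XTH16 -0.59 to -0.31, and without the 3 arrays they were 0.45 and -0.28. XTH27 (AT2G01850), also known as EXGT-A3, was 0.35 higher in rRBr (SE 0.20, adjusted p = 0.6049).

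Over all days, the differences of the synthase and pectin genes lay nearer to 0 than the extremes of the other families. Of the 8 CSL genes 2 were higher and 6 lower in rRBr, between -0.12 for CSLC12 (AT4G07960), of the family that makes the xyloglucan backbone, and 0.03 for CSLC08 (AT2G24630), with a median of -0.07. CSLD2 (AT5G16910), which is needed for normal root hairs, averaged 9.28 ± 0.31 over the Col-0 arrays (SD, n = 6) and 9.21 ± 0.35 over those of rRBr (SD, n = 7), with an interval of the difference of -0.43 to 0.30. Of the 3 PME genes, PME41 (AT4G02330) was lower in rRBr, by a difference of -0.15 (SE 0.07, adjusted p = 0.464). Its 6 Col-0 arrays lay between 4.01 and 4.32 and its 7 rRBr arrays between 3.80 and 4.10, so that all its values were near the lower quartile of the arrays. PME39 (AT4G02300), with 0.04, was the PME gene with the largest positive difference.

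Within single days the 40 genes also held 0 calls in limma at 4, 6 and 10 das, where 0.0044%, 0.0044% and 0.286% of all probe sets passed. An unadjusted p under 0.05 was reached by 3, 1 and 1 of the 40, against 3.1%, 4.35% and 7.8% of all probe sets. At 4 das 14 genes were higher and 26 lower in rRBr (median -0.09, against 0.02 over all probe sets), at 6 das 21 were higher and 18 lower (median 0.01 against -0.03) and at 10 das 21 and 18 (median 0.01 against -0.02). Groups of 1 to 3 arrays gave wide intervals, with median half-widths of 0.51, 0.63 and 0.42 on the 3 days.

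Of all genes with a line difference on a single day, EXLA1 at 10 das had the smallest p. The 3 rRBr arrays were at 8.48, 8.01 and 8.24 and the 3 Col-0 arrays at 7.59, 7.45 and 7.20. All 3 rRBr values lay above all Col-0 values, as they did at 10 das for 5.28% of all probe sets. The difference was 0.83 (SE 0.26, 1.78-fold, limma adjusted p = 0.2992).

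At 4 das the order was the other way round, with EXLA1 at 8.28 and 7.97 in Col-0 and at 7.81 and 7.54 in rRBr, a difference of -0.45 (SE 0.31, adjusted p = 1). At 6 das the single Col-0 value of 7.72 lay between the rRBr values of 8.27 and 7.18. The difference between 10 and 4 das was -0.71 in Col-0 (SE 0.29, adjusted p = 0.9642) and 0.57 in rRBr (SE 0.29, adjusted p = 0.9978), and neither passed. The test of the difference itself, the line effect at 10 das minus that at 4 das, gave 1.28 (SE 0.40, adjusted p = 1). In this comparison 0 of the 40 genes were called at an adjusted p under 0.05, against 0.0044% of all probe sets, and 1 of the 40 had an unadjusted p under 0.05, against 3.06%. Without the 3 arrays the difference of the line effect was 1.25 (SE 0.22) and the difference at 10 das 0.80 (SE 0.15).

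At 4 das 9 genes had both rRBr arrays below both Col-0 arrays (EXPA8, EXPA18, EXLA1, EXLA2, EXLA3, EXPB1, EXPB3, PME41 and XTH19), or 22.5% of the 40 against 13% of all probe sets, and EXLB1 and XTH32 had them above, against 19.8%. EXLA2 was at 7.67 and 7.41 in Col-0 and at 7.05 and 6.77 in rRBr, a difference of -0.63 (SE 0.26, adjusted p = 1). The beta-expansin EXPB3 (AT4G28250) was at 7.15 and 7.37 against 6.76 and 6.99, a difference of -0.39 (SE 0.16, adjusted p = 1). The dim PME41 had a difference of -0.35 (SE 0.12, adjusted p = 1). With 2 arrays a line none of these differences passed the test. At 10 das, where each line has 3 arrays, the lines did not overlap for EXLA1 and, in the other direction, for the dim XTH29 only, against 5.28% and 4.81%.

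**Figure D3:**
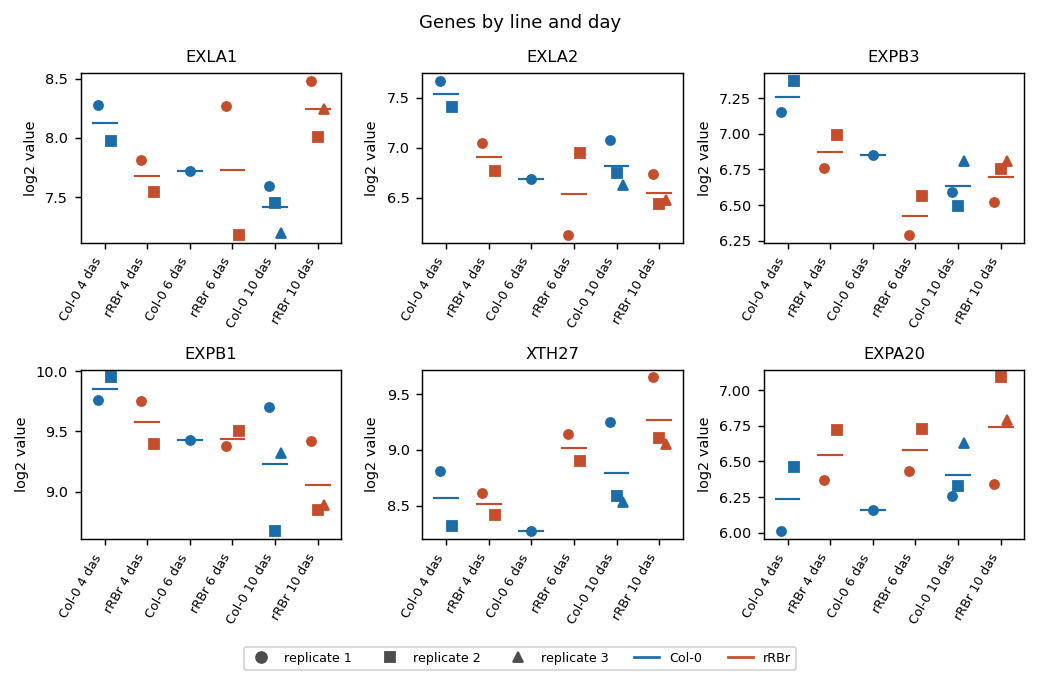
Log2 values of EXLA1, EXLA2, EXPB3, EXPB1, XTH27 and EXPA20 on each array by line and day, with the replicate number as the symbol and a bar at the mean of the group. At 10 das EXLA1 is at 7.20 to 7.59 on the Col-0 arrays and at 8.01 to 8.48 on those of rRBr, while EXLA2, EXPB3 and EXPB1 have their highest mean in Col-0 at 4 das.

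The comparison of ages asked which wall genes differ between 4 and 10 das. None of the 40 was called with limma in Col-0, in rRBr or averaged over both lines, where 0.0308%, 0% and 0.0308% of all probe sets passed. An unadjusted p under 0.05 was found for 5, 1 and 5 of the 40, against 4.61%, 5.26% and 6.47% of all probe sets. With all arrays the medians of the families differed in sign, and for XTH this depended on the arrays with high EXPA7, as given below. Averaged over both lines, 7 of the 10 EXPA and 8 of the 9 EXPB, EXLA and EXLB genes were lower at 10 than at 4 das (median differences of -0.08 and -0.12), 8 of the 10 XTH genes were higher (0.11), and the CSL and PME genes had medians of 0.00, the same as all probe sets. In Col-0 alone the medians were -0.28 for EXPA, -0.29 for the other expansins and 0.07 for XTH, and in rRBr they were 0.09, -0.10 and 0.15.

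EXPB3 had the smallest p of the 40 for age. In Col-0 it was at 7.15 and 7.37 at 4 das, at 6.85 at 6 das and at 6.59, 6.49 and 6.81 at 10 das. In rRBr it was at 6.76 and 6.99, at 6.29 and 6.56, and at 6.52, 6.75 and 6.81. Both Col-0 arrays of 4 das lay above the 3 of 10 das, whereas in rRBr the days overlapped. The difference between 10 and 4 das was -0.63 in Col-0 (SE 0.14, adjusted p = 0.3073), -0.18 in rRBr (SE 0.14, adjusted p = 0.9978) and -0.41 averaged over the lines (SE 0.10, adjusted p = 0.2003), and the test of the difference between the lines gave an adjusted p of 1.

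EXPA15, EXLA2 and EXPB1 (AT2G20750) also had lower values at 10 das in both lines. Averaged over the lines the differences were -0.58 for EXPA15 (SE 0.17, adjusted p = 0.3355), -0.54 for EXLA2 (SE 0.17, adjusted p = 0.3761) and -0.57 for EXPB1 (SE 0.20, adjusted p = 0.4943). EXLA2 was at 7.67 and 7.41 at 4 das and at 7.08, 6.75 and 6.63 at 10 das in Col-0, and at 7.05 and 6.77 against 6.74, 6.44 and 6.48 in rRBr. It was the only 1 of the 40 genes whose 10 das arrays all lay below the 4 das arrays in Col-0 and in rRBr. In Col-0, 9 genes had this order (EXPA8, EXPA9, EXPA15, EXLA1, EXLA2, EXLA3, EXPB1, EXPB3 and EXPB5), all of them expansins or expansin-like, or 22.5% of the 40 against 6.91% of all probe sets. In rRBr 5 had it (CSLC6, EXLA2, EXLB1, PME61 and XTH29), or 12.5% against 11.3%. The reverse order was found for XTH32 in Col-0, against 8.42%, and for EXLA1 and XTH27 in rRBr, against 8.09%.

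Averaged over both lines, XTH27 had the largest positive difference with age. It was at 8.81 and 8.32 at 4 das, at 8.27 at 6 das and at 9.25, 8.59 and 8.53 at 10 das in Col-0, where the days overlapped. In rRBr it was at 8.61 and 8.42, at 9.14 and 8.90, and at 9.65, 9.11 and 9.05, with all arrays of 10 das above those of 4 das. The difference was 0.76 in rRBr (SE 0.26, adjusted p = 0.7322), 0.22 in Col-0 (SE 0.26, adjusted p = 1) and 0.49 averaged over the lines (SE 0.18, adjusted p = 0.5651). Among the other genes the averaged differences lay between -0.40 for EXPA8 and 0.41 for XTH21, and the largest negative one among the XTH genes was -0.20 for XTH19 (SE 0.20, adjusted p = 0.9998).

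The 3 arrays with high EXPA7 bore on several of these differences with age, since 2 of them are arrays of 10 das. With all arrays the averaged difference of EXPA7 was -0.31 (SE 1.05, adjusted p = 0.9998) and that of EXPA18 was 0.27 (SE 1.02, adjusted p = 0.9998). Without the 3 arrays they were -1.54 for EXPA7 and -0.91 for EXPA18, values given as a description with no test, since the arrays were named for the high levels of these genes and leaving them out lowers their level at 10 das by construction. The averaged difference of EXPB1 was then -0.78, that of EXLA2 -0.65, that of XTH19 -0.45 and that of XTH27, a gene with its highest values on these arrays, 0.28. EXPB1, EXLA2 and XTH19 too were highest of their group on both 10 das arrays left out. Leaving these out therefore lowers their level at 10 das as well, and the values are a description with no test. Replicate 1 was the highest array of 10 das for 9 of the 10 XTH genes in Col-0 and for 7 in rRBr. With the 3 arrays left out, the averaged differences of XTH18, XTH21 and XTH33 turned from positive to negative. Those of XTH27 and XTH32 stayed positive. The number of XTH genes higher at 10 das, and the contrast with the expansins, thus depended on these arrays. None of the 40 genes passed the limits without these arrays either.

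By the median of the 40, the cell wall genes varied more between arrays of 1 line and day than all probe sets did, though the PME genes did not. The residual SD, the spread left after the means of the 6 groups were removed, had a median of 0.251 over the 40 genes and 0.145 over all probe sets. By family it was 0.334 for XTH, 0.29 for EXPA, 0.192 for CSL, 0.164 for EXPB, EXLA and EXLB and 0.119 for PME. A range of more than 2 over the 13 arrays was found for 5 of the 40, or 12.5% against 3.12% of all probe sets. They were EXPA7 (a range of 4.46), EXPA18 (4.03), EXPA8 (2.65), XTH18 (2.55) and XTH21 (2.55). The residual SD of EXPA7, 1.863, was exceeded by 0.167% of all probe sets, that of EXPA18, 1.821, by 0.202%, and those of XTH18 (0.986), XTH21 (0.941), EXPA8 (0.871), XTH33 (0.68) and XTH16 (0.53) by 1.29% to 4.3%.

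**Figure D4:**
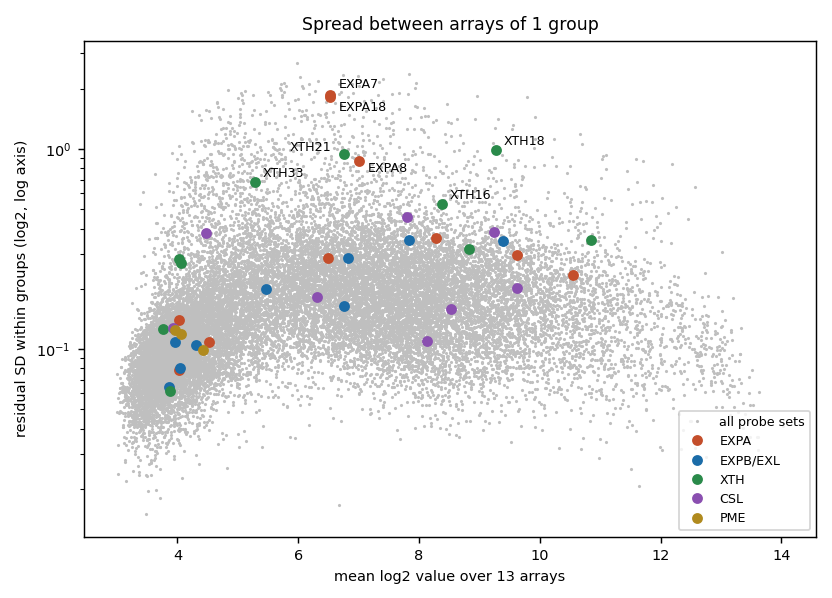
Residual SD within the 6 groups (log axis, log2 units) against the mean log2 value over the 13 arrays, for all probe sets (grey) and the 40 genes (coloured by family). EXPA7 and EXPA18, at a residual SD of 1.863 and 1.821, lie at the upper edge of the cloud, and XTH18, XTH21, EXPA8, XTH33 and XTH16 lie in its upper part.

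Much of this spread fell on the same 3 arrays. These held the 3 highest values of 9 of the 40 genes (EXPA7, EXPA18, CSLA03, CSLD2, XTH18, XTH20, XTH21, XTH26 and XTH27), or 22.5% against 7.74% of all probe sets, and EXPA7 and EXPA18 are those by which the arrays were named. Of the 10 XTH genes 5 were among them. XTH18 was at 10.47, 10.24 and 10.60 on these arrays and between 8.05 and 9.85 on the others. XTH21 (AT2G18800), known for a part in root growth, was at 8.24, 7.70 and 8.01 and between 5.69 and 7.10 on the others. In both genes the step between the groups of arrays was narrower than in the root hair expansins.

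XTH26 (AT4G28850), which acts in root hairs, was at 4.36, 4.76 and 4.22 on the 3 arrays and between 3.84 and 4.00 on the others, and was below the lower quartile on those. CSLD2 was at 9.76, 9.62 and 9.65 against 8.75 to 9.53, and CSLA03 (AT1G23480), of the family of mannan synthases, at 8.45, 8.20 and 8.20 against 7.25 to 8.08. For both the margin was small. EXPA15 was the only 1 of the 40 with its 3 lowest values there, 9.21, 9.06 and 9.07 against 9.40 to 10.43, or 2.5% against 10.3% of all probe sets.

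**Figure D5:**
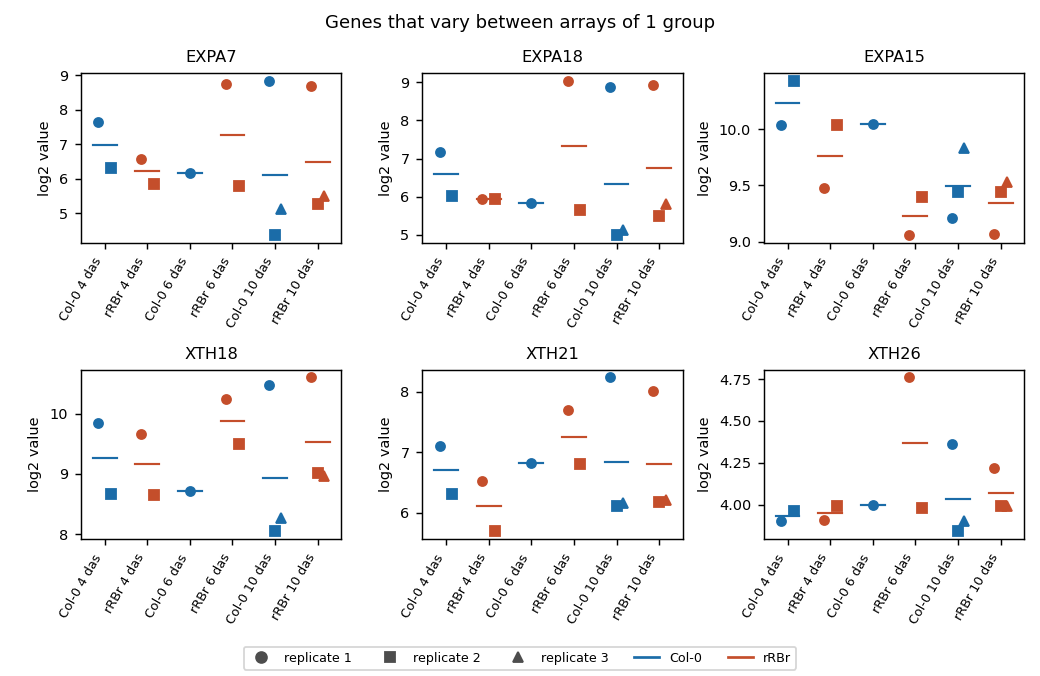
Log2 values of EXPA7, EXPA18, EXPA15, XTH18, XTH21 and XTH26 on each array by line and day, with the replicate number as the symbol and a bar at the mean of the group. Replicate 1 of Col-0 10 das, rRBr 6 das and rRBr 10 das is highest in each panel except that of EXPA15, where it is lowest.

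The other variable genes did not follow the same arrays throughout. EXPA8 (AT2G40610) was at 8.32 on rRBr 10 das replicate 1 and 7.96 on rRBr 6 das replicate 1, but at 7.32 on Col-0 10 das replicate 1, which its Col-0 arrays of 4 das exceeded with 7.43 and 7.55. Its lowest value, 5.67, was on rRBr 10 das replicate 3. XTH33 (AT1G10550), which is anchored in the membrane, was at 6.29, 5.74 and 6.16 on the 3 arrays and at 5.87 on Col-0 4 das replicate 1, with the other 9 between 4.76 and 5.34. XTH16 was highest on Col-0 10 das replicate 1, at 9.48, and at 7.74 and 8.47 on the 2 rRBr arrays of the 3, its lowest value being 7.56 on rRBr 10 das replicate 2.

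In Col-0, replicate 1 was the higher or highest array of its group for 7 of the 10 XTH genes at 4 das and 9 at 10 das, and in rRBr for 8 at 4 das, 8 at 6 das and 7 at 10 das. Over all probe sets the share was 44.1% and 33.7% in Col-0 and 47.2%, 40% and 28% in rRBr. The CSL genes resembled the XTH genes in part, with replicate 1 on top for 7 of 8 at 4 das and 6 at 10 das in Col-0, and for 6 at 4 das and 4 at both 6 and 10 das in rRBr. Among the 10 EXPA genes replicate 1 was lowest more often than highest at 4 das (8 against 2 in Col-0, 7 against 2 in rRBr), at 6 das in rRBr (7 against 3) and at 10 das in rRBr (5 against 3), but not at 10 das in Col-0 (3 against 5). Over all probe sets replicate 1 was also lowest more often than highest in each group. It was lowest for 52.3% and 43.2% at 4 and 10 das in Col-0, and for 49.1%, 57.6% and 49.9% at 4, 6 and 10 das in rRBr. The EXPA shares in rRBr at 10 das, 50% lowest and 30% highest, were thus near those of all probe sets. What sets the first replicates apart is not given in the labels. AUR1 and AUR2, the meristem markers that could be read, were at 8.19 and 7.45 on Col-0 10 das replicate 1, their lowest values, at 8.63 and 8.15 on rRBr 6 das replicate 1, and at 8.65 and 7.94 on rRBr 10 das replicate 1, against 8.51 to 9.06 and 7.97 to 8.57 on the other 10 arrays. A part of the share of meristem cells in the spread of the wall genes was not tested.

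Some members are neighbours on their chromosome. EXLA1 and EXLA3, and XTH18 and XTH19, have no protein-coding gene between them, PME39 and PME41 have 2 and EXPA21 and EXPA24 have 4. EXLA1 had its highest value, 8.48, on rRBr 10 das replicate 1, while EXLA3 was below the lower quartile on all arrays. XTH19 (AT4G30290) was at 11.32, 10.87 and 11.23 on the 3 arrays and reached 11.31 and 11.25 in Col-0 at 4 das, where XTH18 was at 9.85 and 8.67. Whether probes of such similar genes also bind the transcript of the neighbour was not tested.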

How the data were processed

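The authors made the deposited log2 values with RMA in Bioconductor, which corrects the background, sets the arrays to the same quantiles and summarises each probe set, and kept each array apart. The tool versions are not given in the sources used here. They were used as deposited in R 4.3.3, after 64 control probe sets had been left out of 22810. Arrays give no counts, so that their number limits the precision. Members were found by symbol and synonym in the platform's gene annotation (503 probe sets stand for several genes and were not used), and all 40 matched RefSeq (TAIR10.1), which served for names and neighbours only. The members and lists were chosen with earlier results of these data known.

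limma 3.58.1 (lmFit and eBayes) was run on all 22746 probe sets with p adjusted over all of them by the method of Benjamini and Hochberg, as 2 groups by line, the design of the study, and as 6 groups by line and day, which share 1 estimate of the spread, so that the lone Col-0 array of 6 das is assumed to vary like the others. Calls needed an adjusted p below 0.01 with a fold change of 1.4 or more (for the difference of the line effect an adjusted p under 0.05). The scripts were tested on simulated data. Named genes were EXPA7, EXPA18, any called gene, the largest positive and negative differences of each family over all days and between 10 and 4 das, and the 10 largest ranges, and the genes with an unadjusted p under 0.05, non-overlapping groups, a shared order on the 3 arrays or a neighbour were named after their values were seen. Same-numbered arrays of the lines deviated together at 10 das, with correlations over all probe sets of 0.79, 0.60 and 0.63. So did Col-0 replicate 3 with rRBr replicate 2 (0.56) and Col-0 replicate 2 with rRBr replicate 3 (0.41). Pairs of replicate 1 with another number had -0.72 to -0.60. At 4 das the correlation was 0.18, a single value, since 2 arrays deviate as mirror images. The number was also used as a block, but these values do not show that it marks a shared repeat. The pairs of lines by number were counted after the data were seen. Other alternatives were day as a factor, weights per array, a robust variance with a trend, a second quantile normalization, a filter at a mean of 6, looser limits, and fits without 1 array at a time, without 6 das or without the 3 arrays with high EXPA7. Sequences were not analysed here.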

Additional observations from a re-analysis of the deposited data

Results flagged for a closer look

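Within each line, over its 6 or 7 arrays, the highest or the lowest value of a gene was compared with the rest by Dixon's limit. It stood off by more in 6 of 80 groups (40 genes in 2 lines). For independent values of 1 population the limit flags about 1 in 20 groups. These groups pool all days of a line and the genes share their arrays, so that this rate is no expectation for them. XTH26, the root hair XTH, was highest by far on Col-0 10 das replicate 1 at 4.36 (next value 4.00) and, in rRBr, on rRBr 6 das replicate 1 at 4.76 (next value 4.22). EXPA4 was lowest on Col-0 10 das replicate 1 at 7.62 (next value 8.25), and EXPA16 on Col-0 10 das replicate 3 at 4.34 (next value 4.51). On the single Col-0 array of 6 das EXLB2 was at 3.64 (next value 3.82) and XTH29 at 3.82 (next value 3.88), both below the lower quartile of the array and the lowest of their line. No member passed the test of a difference of the line effect between 10 and 4 das.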

How the results depend on the processing

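None of the 40 genes was called in any of 168 alternative fits of the 8 comparisons, and of 734 alternatives for 36 results of single genes 28 reversed the sign. When replicate numbers formed a block (replicate block), the count was 0 in all 8 comparisons and the smallest adjusted p 0.01303 (EXPA15, 10 against 4 das averaged over the lines, -0.71, SE 0.07). In the same fit XTH27 had 0.61 (adjusted p = 0.03314) and EXPB3 -0.48 (adjusted p = 0.0427). Within lines this fit gave -0.87 for EXPA15 in Col-0 (limma adjusted p = 0.02908) and 0.88 for XTH27 in rRBr (limma adjusted p = 0.049). With array weights the averaged difference with age of EXLA2 was -0.64 (limma adjusted p = 0.0298). None of these met the limit of 0.01. The line difference of EXPA7 over all days was -0.14 with array weights, -0.08 without the 6 das arrays and -0.13 without the 3 arrays with high EXPA7, and -0.19 to 0.70 without single arrays. That of EXPA18 was 0.00, -0.02 and -0.06, and -0.05 to 0.85 without single arrays. The averaged difference with age was -0.58 for EXPA18 and -0.08 for CSLA03 with array weights and -0.91 and -0.20 without the 3 arrays. Without single arrays it was -0.37 to 0.60 for EXPA18, -0.10 to 0.25 for CSLA03, -0.02 to 0.13 for EXPB2, -0.12 to 0.01 for PME39 and -0.01 to 0.20 for PME61, and the line difference of CSLC08 was -0.01 to 0.07. Genes with a range over 2 numbered 2 instead of 5 without the 3 arrays, a setting of this count chosen after the data were seen. The causes were not tested. Precision was limited by how many arrays there were. The 95% intervals of 13, 16 and 10 of the 40 genes reached beyond a factor of 2 at 4, 6 and 10 das, and those of 17 for the difference of the line effect between days, against 3 over all days. The line difference of EXLA1 with array weights was 0.05 over all days and 0.91 at 10 das (SE 0.19, limma adjusted p = 0.03412), the latter also short of the limit of 0.01.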

Other observations

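Other genes of the cell wall were read from a list of names that covered cellulose deposition, xylan, xyloglucan and pectin synthesis, extensins and wall hydrolases. Of these, 23 had a probe set of their own. They were 16 wall hydrolases, 3 cellulose related genes, 2 of xylan synthesis and 2 of pectin synthesis and cutting. No extensin or xyloglucan synthesis gene was among them. None was called with limma in any of the 8 comparisons. Over all days 11 were higher and 12 lower in rRBr, with a median difference of 0.00, and the endoglucanase genes GH9B5, GH9B8 and GH9C3 had an unadjusted p under 0.05, 13% of the list against 10.2% of all probe sets, with differences of -0.19, -0.37 and -0.43 and adjusted p of 0.358, 0.3076 and 0.3609. GH9C1, an endoglucanase gene of root hairs, was at 8.70, 9.12 and 9.15 on replicate 1 of Col-0 at 10 das and of rRBr at 6 and 10 das, and between 5.13 and 7.69 on the other 10 arrays. THE1 and FER, receptor kinases that sense the wall, also had their 3 highest values there, at 9.15 to 9.49 and 9.97 to 10.04, against 8.37 to 9.07 and 9.31 to 9.85. Of the 23 genes 3, or 13%, had this order, against 7.74% of all probe sets. COB, which orients cellulose deposition, lay between 10.23 and 10.79.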
